A study of Oryza sativa with 12 samples.

Results

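Leaves of rice (Oryza sativa) carrying a mutation in PHR2 were compared with wild-type leaves after 3 days without inorganic phosphate (Pi). The comparison takes 6 of the 12 RNA-seq libraries of the series: 3 labelled phr2 no Pi and 3 labelled WT no Pi, replicates 1 to 3 of each. The phr2 plants are given in the labels as a PHR2 knockout, with no allele, no line number and no statement of whether 1 or several lines were used; the WT plants are ZH11, a japonica cultivar. Both genotypes grew on half-strength MS medium, a standard plant nutrient medium, and plants aged 3 weeks spent 3 days on this medium lacking Pi. The other 6 libraries, 3 phr2 control and 3 WT control, come from plants labelled as untreated, for which the labels give no day of harvest. Mutants of DGP1, which the design text also names, are not analysed here. Nothing in the labels says that replicates are separate plants, so the p-values measure the spread between these libraries, which may be technical in part.

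PHR2 is a MYB-type transcription factor that switches on genes of Pi starvation. When Pi is plentiful, SPX proteins bind inositol pyrophosphates and hold PHR factors away from their target promoters. When Pi runs short, the SPX proteins let go, and the targets include SPX genes themselves, the noncoding RNA IPS1, Pi transporters, acid phosphatases and enzymes that swap phospholipids for sulfolipids and galactolipids. The series' title names signalling by PHR2 and DGP1, a protein that represses the photosynthesis activators GLK1 and GLK2. Levels are FPKM, fragments scaled to transcript length and library depth, summed over the transcripts of a gene. Of 39967 genes, 20900 had at least 1 FPKM in at least 3 of the 6 libraries and were tested as log2(FPKM + 1) with limma. Positive log2 differences mean higher in phr2. Genes are said to have risen, fallen or passed where p, adjusted by Benjamini and Hochberg over the 20900 genes, was under 0.05.

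One of the 3 phr2 libraries stood apart from its group. The library labelled phr2 no Pi replicate 3 had a Pearson r of 0.965 with WT no Pi replicate 2, its nearest library. Its mean r was 0.912 with the 3 WT no Pi libraries and 0.855 with phr2 no Pi replicates 1 and 2. Those replicates 1 and 2 had an r of 0.923 with each other and of 0.764 to 0.868 with the WT no Pi libraries. Fragments behind the values ranged from 10388401 to 11406204 in the phr2 libraries and from 10137241 to 13122430 in the WT libraries. The 10 most abundant genes took 12.8% of the fragments in phr2 replicate 1 and 12.7% in replicate 2, but 7.30% in replicate 3 and 6.53% to 7.12% in WT. Leaf mesophyll markers were high in all 6 libraries. Small subunit genes of Rubisco summed to 12550, 25440 and 15180 FPKM in phr2, against 10650, 12700 and 8907 FPKM in WT. The tests were therefore run with all 6 libraries and without phr2 replicate 3.

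**Figure D1:**
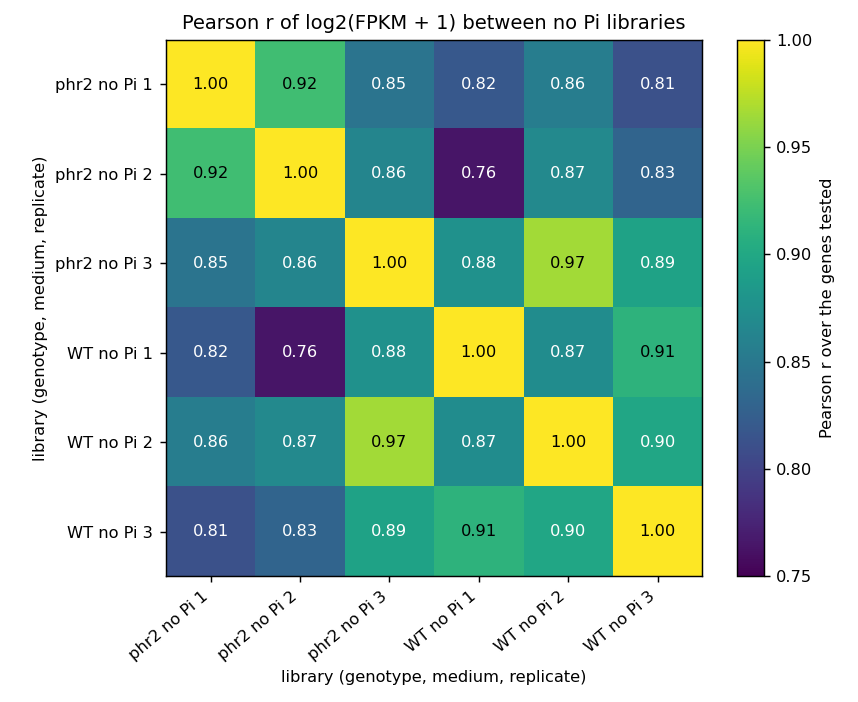
Pearson r of log2(FPKM + 1) between the 6 no Pi libraries over the 20900 genes tested, with rows and columns ordered as phr2 replicates 1 to 3, then WT replicates 1 to 3. The cell of phr2 replicate 3 and WT replicate 2 reads 0.97, and phr2 replicates 1 and 2 read 0.92 with each other.

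The targeted gene did not pass between the genotypes. PHR2 (Os07g0438800, chromosome 7, 14753753 to 14759288, plus strand) had 23.2, 24.2 and 29.7 FPKM in phr2, against 24.8, 31.5 and 24.7 FPKM in WT. Replicates 1 and 2 lay just below all WT libraries and replicate 3 lay within them (log2 difference −0.17, SE 0.32, limma adjusted p = 0.893; −0.07 with all 6 libraries). A level this close to WT does not check the labels. DGP1 (Os01g0837600, chromosome 1, 35912084 to 35913241, plus strand) had 133, 248 and 675 FPKM in phr2, against 931, 317 and 429 FPKM in WT. Its phr2 replicates 1 and 2 lay below every WT library and replicate 3 lay within the WT range (log2 difference −1.46, SE 1.21, limma adjusted p = 0.673; −0.83 with all 6 libraries). The spread behind this SE takes in the control medium libraries. There DGP1 had 13943 FPKM in WT control replicate 1, against 464 and 473 FPKM in WT control replicates 2 and 3. The part of that library in the SE was not tested. GLK2, an activator of photosynthesis genes (Os01g0239000, chromosome 1, 7686901 to 7693984, minus strand), had 89.8, 67.7 and 47.1 FPKM in phr2, against 128, 53.6 and 108 FPKM in WT, with overlapping groups (log2 difference −0.21, SE 0.64, limma adjusted p = 0.939; −0.45 with all 6 libraries, and 0.10 under quantile normalization). GLK1 was listed at 0 in all 12 libraries, as were 8950 of all 39967 genes. Whether it was silent or not measured by the quantification was not tested.

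With all 6 libraries no gene passed: 0 of 20900 (0%) in limma, with the smallest adjusted p at 0.523. Before adjustment 1843 genes (8.82%) had a p under 0.05, and voom on the recovered fragments also called 0, with 1827 unadjusted. Leaving out WT replicate 2 in place of phr2 replicate 3 gave 33 genes. The ranges of the groups did not overlap for 1194 genes that lay higher in phr2 (5.71%) and 1144 that lay lower (5.47%). Without phr2 replicate 3, 289 genes passed (1.38%): 45 rose (0.215%) and 244 fell (1.17%), with log2 differences of at least 1.49 in size, and 2958 genes (14.2%) had an unadjusted p under 0.05. These calls set 2 phr2 libraries against 3 WT libraries, with the spread estimated over 11 libraries of the 4 groups. Replicate 3 was left out for its profile in these same data, which can widen the differences and narrow the spread. The adjusted p-values without it can therefore be too low, and the calls are a description. The calls rest on both remaining phr2 libraries. Leaving out phr2 replicate 1 as well gave 7 genes, and leaving out phr2 replicate 2 gave 0. In WT the count was 32 without replicate 1, 453 without replicate 2 and 48 without replicate 3, and it was 667 without WT control replicate 1. It was 94 with voom and 639 with the no Pi groups fitted alone. The higher share of the 10 most abundant genes in phr2 replicates 1 and 2 moves with these calls, and its part in them was not tested. The filter was set over all 6 libraries. A gene at 1 FPKM or more only in phr2 replicates 1 and 2 was not tested, whereas one at that level only in the 3 WT libraries was. The counts of rises and falls are therefore not on equal terms. The values that follow are from the comparison without replicate 3 unless stated otherwise. The values with all 6 libraries set beside them share the other libraries, so they are not a separate reading. None of these genes passed with all 6 libraries, where every adjusted p was at least 0.523.

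Of the 30 gene lists, the jasmonate pathway had the highest share of genes that fell. The lists were chosen with earlier results of these data known, so this rank is a description. Jasmonate is a lipid-derived hormone of wounding and defence, and its TIFY or JAZ proteins repress the response while their own genes are switched on by it. Of 43 jasmonate genes tested, 8 fell (18.6%, against 1.17% of all genes) and 0 rose. The median log2 difference over the 43 was −1.25 (−0.998 with all 6 libraries), against 0.00 over all genes. Below 0 lay 34 of the 43, against 10409 of all 20900 genes. Of the 8 that fell, 6 encode TIFY repressors. TIFY10A (Os03g0402800, chromosome 3, 16407695 to 16410007, minus strand) had 62.8, 53.7 and 1137 FPKM in phr2, against 2403, 1016 and 1584 FPKM in WT. Both phr2 replicates 1 and 2 lay far below every WT library, and replicate 3 lay within the WT range (log2 difference −4.73, SE 0.53, limma adjusted p = 0.00574; −3.31 with all 6 libraries).

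TIFY11E (Os10g0391400, chromosome 10, 13031180 to 13032006, minus strand) had 0.324, 0.679 and 59.2 FPKM in phr2, against 629.8, 61.9 and 115 FPKM in WT (log2 difference −6.80, SE 1.19, limma adjusted p = 0.0242; −5.02 with all 6 libraries). TIFY11A (Os03g0180800, chromosome 3, 4232004 to 4233038, minus strand) had 0.150, 0.158 and 51.2 FPKM in phr2, against 402, 40.5 and 81.8 FPKM in WT (log2 difference −6.59, SE 1.16, limma adjusted p = 0.0248; −4.76 with all 6 libraries). In both, phr2 replicates 1 and 2 were under 1 FPKM, and replicate 3 was close to the lowest WT library. TIFY9 (Os04g0395800) had 0.143, 0.9003 and 24.4 FPKM in phr2, against 48.4, 19.3 and 15.2 FPKM in WT (log2 difference −4.10, SE 0.54, limma adjusted p = 0.00955; −2.73 with all 6 libraries), again with replicate 3 inside the WT range. TIFY10B (Os07g0615200) and TIFY11D (Os10g0392400) also fell, by 3.13 and 6.35 on the log2 scale (limma adjusted p = 0.0187 and 0.0233; −2.05 and −4.41 with all 6 libraries).

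The other 2 falls of the list were enzyme genes, and a related enzyme gene outside the list fell as well. ALLENE OXIDE SYNTHASE 1, an early step of jasmonate synthesis (Os03g0767000, chromosome 3, 31764991 to 31766985, minus strand), had 5.48, 6.36 and 55.8 FPKM in phr2, against 204, 33.7 and 52.8 FPKM in WT (log2 difference −3.39, SE 0.64, limma adjusted p = 0.0312; −2.38 with all 6 libraries). A gene matched to jasmonate-induced oxygenase 1, of the type that hydroxylates jasmonate in Arabidopsis (Os03g0289800, overlapped by an annotated gene on the other strand), had 0.627, 0.950 and 53.4 FPKM in phr2, against 156, 43.7 and 80.0 FPKM in WT (log2 difference −5.54, SE 0.86, limma adjusted p = 0.0167; −3.89 with all 6 libraries). CYTOCHROME P450 94C2B (Os12g0150200, chromosome 12, 2467929 to 2469700, minus strand), of a family that oxidizes the active jasmonoyl-isoleucine, had 0.0530, 0 and 34.5 FPKM in phr2, against 443, 52.3 and 39.2 FPKM in WT (log2 difference −6.58, SE 1.32, limma adjusted p = 0.03996; −4.88 with all 6 libraries). In all 3 of these genes phr2 replicates 1 and 2 lay below every WT library.

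**Figure D2:**
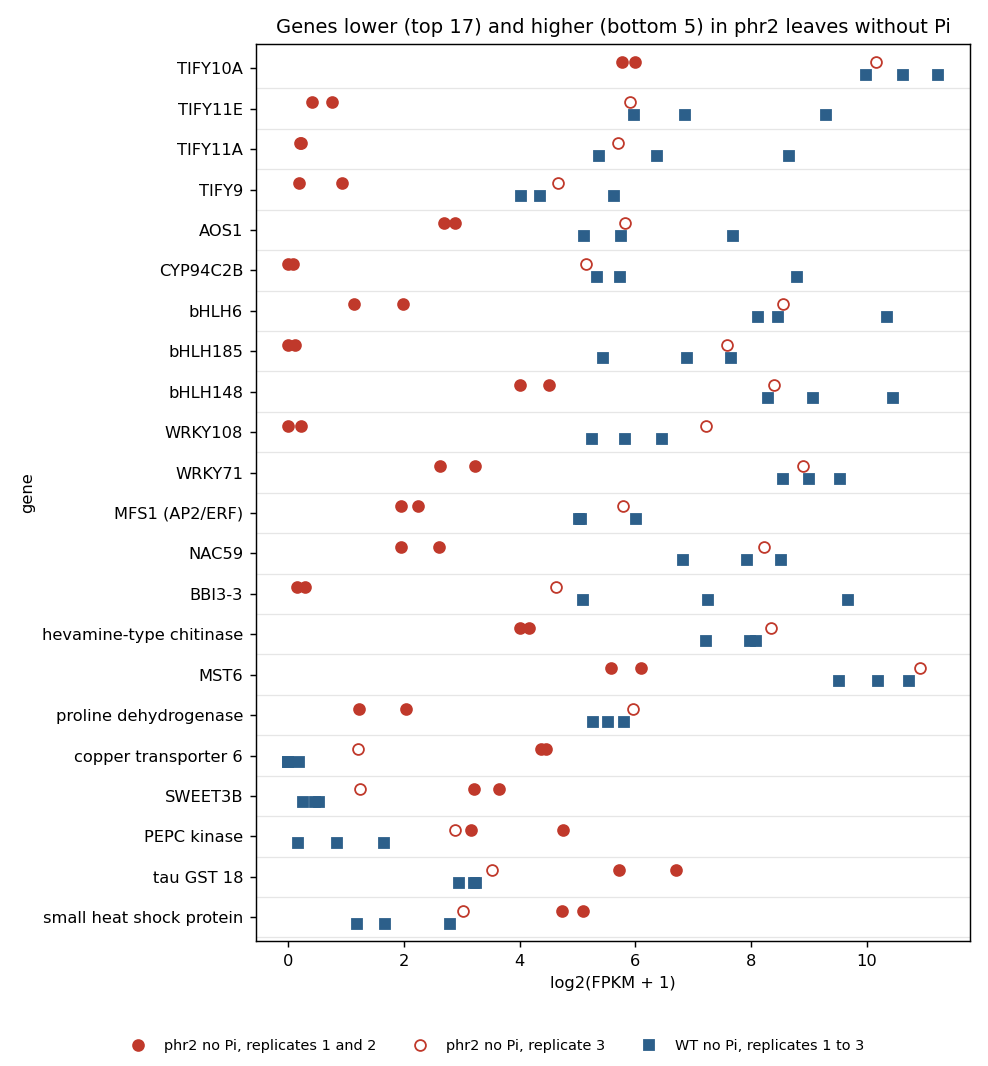
Level of 22 genes that passed without phr2 replicate 3, as log2(FPKM + 1) on the horizontal axis, with phr2 libraries as circles (replicate 3 open) above WT libraries as squares in each row. In the upper 17 rows the filled circles lie left of all squares and in the lower 5 rows right of them, while the open circle lies nearer the squares in all rows but that of PEPC kinase.

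Genes of 4 transcription factor families are set here against the 1.17% of all genes that fell. Of 52 bHLH genes tested 6 fell (11.5%), of 60 AP2/ERF genes 6 fell (10%), of 65 WRKY genes 4 fell (6.15%) while the NAC share was near that of all genes, with 1 of 55 (1.82%). None of these 4 families had a member that rose. The medians were −0.36 for bHLH, −1.32 for AP2/ERF, −1.54 for WRKY and −0.91 for NAC genes, with 34, 48, 57 and 40 members below 0. Among all 20900 genes 10409 lay below 0. With all 6 libraries the medians were −0.38, −0.77, −1.23 and −0.73.

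The largest fall of the 244 was that of bHLH6, a factor of disease resistance (Os04g0301500, chromosome 4, 13466455 to 13468869, minus strand). It had 2.96, 1.19 and 375 FPKM in phr2, against 1309, 351 and 277 FPKM in WT (log2 difference −7.42, SE 1.14, limma adjusted p = 0.0165; −5.09 with all 6 libraries). bHLH185 (Os01g0773800, chromosome 1, 32714779 to 32716649, plus strand) had 0.0881, 0 and 192 FPKM in phr2, against 201.2, 118 and 42.3 FPKM in WT (log2 difference −6.60, SE 0.61, limma adjusted p = 0.00269; −4.09 with all 6 libraries). bHLH148, a factor of drought tolerance (Os03g0741100, chromosome 3, 30406830 to 30409342, plus strand), had 21.6, 15.1 and 337 FPKM in phr2, against 1395, 311 and 538 FPKM in WT (log2 difference −5.01, SE 0.76, limma adjusted p = 0.0153; −3.63 with all 6 libraries). In each of these genes replicate 3 read inside the WT range, whereas replicates 1 and 2 read at most 21.6 FPKM.

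WRKY108 and WRKY21 are described in the table as promoting Pi accumulation when Pi is replete. WRKY108 (Os01g0821300, chromosome 1, 35032858 to 35035321, minus strand) had 0, 0.158 and 147 FPKM in phr2, against 87.3, 55.8 and 37.1 FPKM in WT (log2 difference −5.74, SE 0.51, limma adjusted p = 0.00269; −3.37 with all 6 libraries). Replicate 3 lay above all WT libraries here, and replicate 1 was listed at 0. WRKY21 (Os01g0821600) had 1.15, 2.62 and 23.8 FPKM in phr2, against 79.5, 19.9 and 38.9 FPKM in WT (log2 difference −3.86, SE 0.81, limma adjusted p = 0.0488; −2.81 with all 6 libraries). WRKY71, a factor of defence (Os02g0181300, chromosome 2, 4542938 to 4544874, plus strand), had 5.19, 8.37 and 477 FPKM in phr2, against 739, 514 and 376 FPKM in WT (log2 difference −6.10, SE 0.68, limma adjusted p = 0.00574; −4.11 with all 6 libraries). This gene overlaps Os02g0181200 on the other strand, and the use of strand in counting is not given in the sources used here. WRKY104 (Os11g0117400) fell by 4.51 on the log2 scale (limma adjusted p = 0.0268; −3.31 with all 6 libraries).

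MULTI-FLORET SPIKELET 1, an AP2/ERF factor known from spikelet meristems (Os05g0497200, chromosome 5, 24427953 to 24428867, minus strand), had 2.85, 3.73 and 54.2 FPKM in phr2, against 63.3, 31.5 and 32.3 FPKM in WT (log2 difference −3.27, SE 0.38, limma adjusted p = 0.00723; −2.04 with all 6 libraries). ETHYLENE RESPONSE FACTOR 68 (Os01g0313300) had 10.4, 4.91 and 85.7 FPKM in phr2, against 66.1, 66.5 and 37.0 FPKM in WT (log2 difference −2.76, SE 0.39, limma adjusted p = 0.0131; −1.63 with all 6 libraries). For both, phr2 replicates 1 and 2 lay below all WT libraries, while replicate 3 lay within the WT range for the first and above it for the second. ETHYLENE RESPONSE FACTOR 20 (Os02g0676800) and ETHYLENE RESPONSE FACTOR 99 (Os01g0868000, described as a factor of salt and other abiotic stress) fell by 4.51 and 4.34 (limma adjusted p = 0.0380 and 0.0209; −2.65 and −2.90 with all 6 libraries). NAC59, described as an early regulator of abiotic stress (Os01g0862800, chromosome 1, 37334397 to 37336207, plus strand), had 5.05, 2.87 and 298 FPKM in phr2, against 244, 367 and 112 FPKM in WT (log2 difference −5.49, SE 0.73, limma adjusted p = 0.01005; −3.50 with all 6 libraries). It overlaps an annotated gene on the other strand. The NAC gene Os03g0815100, described as responding to blast infection and methyl jasmonate, had 58.0, 35.0 and 420.5 FPKM in phr2, against 2050.4, 583 and 798 FPKM in WT and did not pass (log2 difference −4.42, SE 1.10, limma adjusted p = 0.0859; −3.35 with all 6 libraries).

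Of 107 defence genes 4 fell (3.74%, against 1.17% of all genes) and 0 rose (against 0.215% of all genes). The median was −0.73 (−0.58 with all 6 libraries), and 79 of the 107 lay below 0, against 10409 of all 20900 genes. BOWMAN-BIRK INHIBITOR 3-3, a proteinase inhibitor (Os01g0124401, chromosome 1, 1353705 to 1354767, minus strand), had 0.106, 0.222 and 23.8 FPKM in phr2, against 817, 33.4 and 151 FPKM in WT (log2 difference −7.12, SE 1.10, limma adjusted p = 0.0167; −5.65 with all 6 libraries). Here replicate 3 lay below the lowest WT library, yet far above replicates 1 and 2. A chitinase gene of the hevamine type, overlapped by a gene on the other strand (Os01g0860500, chromosome 1, 37239583 to 37240775, plus strand), had 16.9, 15.1 and 325 FPKM in phr2, against 271, 252 and 147 FPKM in WT (log2 difference −3.68, SE 0.49, limma adjusted p = 0.0106; −2.25 with all 6 libraries). BETA-1,3-GLUCANASE 6 (Os01g0940800) and the glucanase gene Os03g0792800, whose products cut fungal wall glucans, fell by 3.47 and 3.61 (limma adjusted p = 0.0331 and 0.0336; −2.85 and −2.50 with all 6 libraries). Outside this list, PEROXIDASE 30, a class III peroxidase of blight resistance (Os02g0240100, chromosome 2, 7938411 to 7939811, plus strand), had 0.247, 0.173 and 35.7 FPKM in phr2, against 234, 27.3 and 235 FPKM in WT (log2 difference −6.59, SE 0.82, limma adjusted p = 0.00738; −4.95 with all 6 libraries). BURP DOMAIN-CONTAINING PROTEIN 16, a cell wall protein of the polygalacturonase beta subunit type (Os10g0409400), had 3.61, 2.06 and 117 FPKM in phr2, against 1625, 105 and 453 FPKM in WT (log2 difference −6.83, SE 1.43, limma adjusted p = 0.0474; −5.17 with all 6 libraries). The WT replicates were themselves spread widely in these genes, with replicate 1 highest in the inhibitor, the BURP gene and TIFY11E.

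The other large falls were in transport and metabolism or in genes of unknown role. MONOSACCHARIDE TRANSPORTER 6, a sugar importer of the plasma membrane (Os07g0559700, chromosome 7, 22353362 to 22355669, minus strand), had 67.8, 46.9 and 1932 FPKM in phr2, against 1169.8, 1708 and 735 FPKM in WT (log2 difference −4.31, SE 0.51, limma adjusted p = 0.00728; −2.62 with all 6 libraries). PROLINE DEHYDROGENASE, the first step of proline breakdown in mitochondria (Os10g0550900, chromosome 10, 21618211 to 21620554, plus strand), had 3.08, 1.33 and 61.4 FPKM in phr2, against 45.0, 37.6 and 54.7 FPKM in WT (log2 difference −3.91, SE 0.55, limma adjusted p = 0.0127; −2.46 with all 6 libraries). Replicate 3 was the highest of all 6 libraries in both genes. Os03g0736900 had 12, 6.03 and 832 FPKM in phr2, against 1856, 430.5 and 1439 FPKM in WT (log2 difference −6.78, SE 1.42, limma adjusted p = 0.0481; −4.63 with all 6 libraries). Os01g0952900, a conserved hypothetical gene, was listed at 0 in phr2 replicates 1 and 2 and had 87.6 FPKM in replicate 3, against 154, 95.8 and 93.0 FPKM in WT (limma adjusted p = 0.0150; 0.531 with all 6 libraries). EARLY FLOWERING 3.2, an ELF3 homologue of the clock's evening complex (Os01g0566100, chromosome 1, 21637031 to 21643111, minus strand), had 7.97, 6.03 and 36.3 FPKM in phr2, against 31.4, 35.0 and 34.5 FPKM in WT (log2 difference −2.12, SE 0.31, limma adjusted p = 0.0141; −1.38 with all 6 libraries) and was the one clock gene of 22 that passed (median −0.03, and −0.18 with all 6 libraries). This fall makes up 4.55% of the clock list, against 1.17% of all genes.

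The 45 genes that rose came from several functions. The largest rise was in COPPER TRANSPORTER 6 (Os08g0455900, chromosome 8, 22362338 to 22362868, plus strand), with 20.9, 19.5 and 1.295 FPKM in phr2, against 0, 0.142 and 0 FPKM in WT (log2 difference 4.34, SE 0.92, limma adjusted p = 0.0488; 3.27 with all 6 libraries). A leucine-rich repeat gene (Os08g0247600) had 30.9, 37.3 and 0.250 FPKM in phr2, against 0.128, 1.23 and 1.55 FPKM in WT (log2 difference 4.23, SE 0.52, limma adjusted p = 0.00738; 2.63 with all 6 libraries). Replicate 3 lay within the WT range in the repeat gene and above it in the transporter gene. SWEET3B, a sugar exporter (Os01g0220700, chromosome 1, 6612386 to 6613717, minus strand), had 8.26, 11.5 and 1.36 FPKM in phr2, against 0.199, 0.384 and 0.438 FPKM in WT (log2 difference 3.01, SE 0.35, limma adjusted p = 0.00728; 2.28 with all 6 libraries). With MONOSACCHARIDE TRANSPORTER 6, it was 1 of 2 among 52 sugar transport genes that passed (median 0.16, and 0.09 with all 6 libraries). The shares of the list were 1.92% lower and 1.92% higher, against 1.17% and 0.215% of all genes.

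Phosphoenolpyruvate carboxylase kinase, which activates the carboxylase that feeds organic acid synthesis (Os04g0517500, chromosome 4, 25867807 to 25869187, plus strand), had 25.8, 7.91 and 6.34 FPKM in phr2, against 0.784, 2.16 and 0.123 FPKM in WT (log2 difference 3.06, SE 0.63, limma adjusted p = 0.0431; 2.70 with all 6 libraries). All 3 phr2 libraries lay above all 3 WT libraries in this gene. It was the only one of 46 genes of Pi-sparing glycolysis and organic acids that passed (median 0.15, and 0.07 with all 6 libraries). This rise makes up 2.17% of the list, against 0.215% of all genes. The carboxylase gene PHOSPHOENOLPYRUVATE CARBOXYLASE 2B (Os09g0315700) had 40.4, 24.1 and 10.05 FPKM in phr2, against 9.01, 9.15 and 8.33 FPKM in WT and did not pass (log2 difference 1.72, SE 0.39, limma adjusted p = 0.0652; 1.20 with all 6 libraries), although its libraries also did not overlap.

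Among genes with a name or description, the 10 largest rises included 8 further genes. TAU GLUTATHIONE S-TRANSFERASE 18, a detoxifying enzyme (Os10g0529300), had 51.5, 103 and 10.5 FPKM in phr2, against 8.45, 8.25 and 6.71 FPKM in WT (log2 difference 3.08, SE 0.49, limma adjusted p = 0.0200; 2.19 with all 6 libraries). A gene similar to the aluminium-induced Wali7 of wheat (Os12g0145100, overlapped by a gene on the other strand) had 175, 257 and 26.4 FPKM in phr2, against 11.6, 22.2 and 24.1 FPKM in WT (log2 difference 3.46, SE 0.42, limma adjusted p = 0.00738; 2.47 with all 6 libraries). Os01g0910900, a conserved hypothetical gene, was the most abundant of the set, with 7488, 4781 and 968 FPKM in phr2, against 516, 742 and 345 FPKM in WT (log2 difference 3.55, SE 0.58, limma adjusted p = 0.0216; 2.67 with all 6 libraries). In each of these 3 genes replicates 1 and 2 were well above all other libraries. The remaining ones, namely Os03g0129400, the Bet v I gene Os08g0374000, Os05g0534100, matched to a membrane protein, the RADIALIS-like gene Os01g0663051 and Os01g0556650, rose by 3.13 to 3.73 (2.31 to 2.82 with all 6 libraries). Os01g0556650 is described as a hypothetical protein and lies opposite the gene Os01g0556700. Its Swiss-Prot match, NRT1/PTR FAMILY 6.2, does not show that it encodes a transporter. Beyond these 10, 2 of 184 heat shock and folding genes rose (1.09%, against 0.215% of all genes), with a median of −0.06 (−0.12 with all 6 libraries). The small heat shock protein gene Os02g0128000 had 25.7, 33.3 and 7.16 FPKM in phr2, against 2.20, 5.94 and 1.29 FPKM in WT (log2 difference 3.03, SE 0.54, limma adjusted p = 0.0262; 2.40 with all 6 libraries). Os04g0691900, described as of the chaperonin Cpn60 family but matched to a phosphoinositide kinase, had 5.52, 9.21 and 1.36 FPKM in phr2, against 0.340, 1.35 and 0.395 FPKM in WT (log2 difference 2.32, SE 0.44, limma adjusted p = 0.0312; 1.72 with all 6 libraries).

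Among the lists of Pi-starvation genes, which hold known targets of PHR factors, 0 of the genes tested rose and 4 fell. Genes at 1 FPKM or more only in phr2 replicates 1 and 2, or in 1 of them, did not enter the test. The filter thus favours falls over rises in this count. Of 32 Pi signalling genes listed, 16 were tested, with 1 fall (6.25%, against 1.17% of all genes) and 0 rises, and the median was 0.16 (0.01 with all 6 libraries). The gene that fell, Os03g0240600, entered this list through a search word added after values were seen. The share of falls in this list is therefore a description only. SPX1, SPX4 and PHR4, each with 2 transcripts, were listed at 0 in all 12 libraries, as were 8950 of all 39967 genes. Whether these genes were silent or not measured by the quantification was not tested. IPS1, SPX2, SPX3, SPX5 and SPX6 were below the level tested. IPS1 (Os03g0146800), which sponges miR399, had 7.91, 0.905 and 0 FPKM in phr2, against 0, 0.535 and 0 FPKM in WT. SPX2 (Os02g0202200) had 1.06, 0.303 and 0 FPKM in phr2, against 0, 0.0896 and 0 FPKM in WT. SPX5 (Os03g0406100) had 5.02, 0.686 and 0 FPKM in phr2, against 0.316, 0 and 0.232 FPKM in WT. Each of the 3 was highest in phr2 replicate 1. In control medium phr2 replicate 1 was again the highest of the 6 libraries for all 3 genes, at 5.86, 1.46 and 5.48 FPKM.

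Genes that store and move Pi had 0 calls, and phr2 replicate 1 was again high in some. An SPX-MFS gene, of a family of vacuolar Pi transporters (Os02g0678200, chromosome 2, 27696289 to 27702009, plus strand) had 180.2, 92.6 and 22.1 FPKM in phr2, against 10.9, 19.8 and 20.3 FPKM in WT. Replicates 1 and 2 lay above all WT libraries and replicate 3 just above the highest of them, but the difference did not pass (log2 difference 2.90, SE 0.99, limma adjusted p = 0.198; 2.07 with all 6 libraries). In control medium its phr2 libraries had 258, 22.0 and 11.5 FPKM, against 45.0, 30.7 and 33.5 FPKM in WT. A second gene of this family, described as a vacuolar Pi effluxer (Os06g0129400), had 7.47, 5.96 and 20.6 FPKM in phr2, against 165, 14.4 and 171 FPKM in WT (log2 difference −3.31, SE 1.44, limma adjusted p = 0.332; −2.81 with all 6 libraries). In both genes phr2 replicates 1 and 2 stood apart from all WT libraries, in opposite directions. The Pi exporter gene PHO1;1 (Os01g0110100) had 4.29, 3.26 and 2.07 FPKM in phr2, against 1.24, 1.70 and 0.718 FPKM in WT (log2 difference 1.12, SE 0.42, limma adjusted p = 0.244; 0.91 with all 6 libraries). PHO1;3 (Os06g0493600) had 19.8, 4.58 and 2.06 FPKM in phr2, against 1.01, 2.55 and 2.56 FPKM in WT (log2 difference 1.88, SE 0.69, limma adjusted p = 0.235; 1.27 with all 6 libraries). Both overlap annotated antisense genes, which had at most 0.164 FPKM in these libraries.

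The 1 fall among Pi signalling genes was an E3 ubiquitin ligase gene named for its induction by Pi starvation (Os03g0240600, chromosome 3, 7440402 to 7442007, minus strand). It had 0.364, 0 and 8.63 FPKM in phr2, against 13.5, 5.92 and 3.93 FPKM in WT. Replicates 1 and 2 lay below all WT libraries and replicate 3 within them (log2 difference −2.76, SE 0.51, limma adjusted p = 0.0290; −1.74 with all 6 libraries). PHR1 and PHR3, relatives of PHR2 in Pi signalling, did not pass. PHR1 (Os03g0329900) had 44.9, 53.1 and 36.6 FPKM in phr2, against 37.0, 50.2 and 63.0 FPKM in WT, and PHR3 (Os02g0139000) had 22.8, 23.8 and 22.4 FPKM in phr2, against 58.6, 42.0 and 16.7 FPKM in WT, both with overlapping groups. NITROGEN LIMITATION ADAPTATION 1, a ligase that marks Pi transporters for breakdown (Os07g0673200), had 15.3, 26.5 and 21.1 FPKM in phr2, against 119, 55.0 and 24.4 FPKM in WT (log2 difference −1.39, SE 0.64, limma adjusted p = 0.363; −1.37 with all 6 libraries).

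Of 39 Pi transporter genes 12 were tested, and 0 passed (median 0.27, 4 below 0; 0.16 with all 6 libraries). By their Swiss-Prot matches the 12 are chloroplast Pi transporters, mitochondrial Pi carriers and anion transporters, and none is of the PHT1 type that imports Pi across the plasma membrane. PHOSPHATE TRANSPORTER 19, a mitochondrial carrier (Os09g0454600, chromosome 9, 17081142 to 17083418, plus strand), had 9.81, 3.40 and 53.9 FPKM in phr2, against 78.6, 34.4 and 19.1 FPKM in WT (log2 difference −2.48, SE 0.76, limma adjusted p = 0.153; −1.48 with all 6 libraries). PHOSPHATE TRANSPORTER 24 of the chloroplast (Os09g0570400) had 175, 223 and 219.9 FPKM in phr2, against 89.3, 206 and 103 FPKM in WT, and PHOSPHATE TRANSPORTER 25 (Os11g0186800) had 1.92, 4.02 and 4.08 FPKM in phr2, against 5.19, 2.99 and 8.87 FPKM in WT. Of these 3 genes, the mitochondrial carrier alone set replicates 1 and 2 apart from all WT libraries.

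Among acid phosphatases and S-like RNases, which recover Pi from organic matter, 2 of 27 fell (7.41%, against 1.17% of all genes) and 0 rose. The median was 0.17 (0.13 with all 6 libraries), with 15 members above 0 and 12 below. In 7 of the 27 members phr2 replicates 1 and 2 lay above all WT libraries, against 14.9% of all genes. In 6 of the 27 they lay below all of them, against 18.5% of all genes. A purple acid phosphatase gene whose product is annotated as probably inactive (Os06g0699200, matched to purple acid phosphatase 28) had 13.2, 14.0 and 109.9 FPKM in phr2, against 58.5, 67.5 and 49.3 FPKM in WT (log2 difference −2.01, SE 0.36, limma adjusted p = 0.0261; −1.04 with all 6 libraries). An acid phosphatase 1 type gene (Os05g0191500) had 2.05, 10.9 and 50.1 FPKM in phr2, against 149, 39.7 and 51.1 FPKM in WT (log2 difference −3.50, SE 0.73, limma adjusted p = 0.0480; −2.47 with all 6 libraries). In the purple acid phosphatase gene replicate 3 was the highest of the 6 libraries.

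Of 39 lipid remodelling genes tested 1 fell (2.56%, against 1.17% of all genes), 0 rose and the median was 0.27 (0.03 with all 6 libraries). The fall was in a glycerophosphodiester phosphodiesterase gene, of the family that breaks down deacylated phospholipids (Os02g0588500, chromosome 2, 22687278 to 22692268, plus strand), with 0.865, 4.92 and 174 FPKM in phr2, against 60.03, 112 and 39.6 FPKM in WT (log2 difference −4.30, SE 0.65, limma adjusted p = 0.0153; −2.40 with all 6 libraries). It overlaps an annotated gene on the other strand. A sulfolipid synthase gene of the SQD2 type, named PREMATURE LEAF SENESCENT 2 and overlapped by a gene on the other strand (Os03g0265100, chromosome 3, 8737129 to 8741179, plus strand), had 112, 109 and 53.5 FPKM in phr2, against 46.7, 52.6 and 53.2 FPKM in WT. Replicates 1 and 2 lay above the other 4 libraries, and the difference did not pass (log2 difference 1.11, SE 0.26, limma adjusted p = 0.0730; 0.77 with all 6 libraries). PHOSPHOLIPASE D ALPHA 5 (Os06g0604300) had 4.30, 4.78 and 3.32 FPKM in phr2, against 1.36, 1.58 and 0.954 FPKM in WT, with no overlap of the groups (log2 difference 1.28, SE 0.39, limma adjusted p = 0.156; 1.16 with all 6 libraries). A monogalactosyldiacylglycerol synthase gene below the level tested (Os08g0299400) had 5.93, 0.241 and 0.0542 FPKM in phr2 and was listed at 0 in all WT no Pi libraries.

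**Figure D3:**
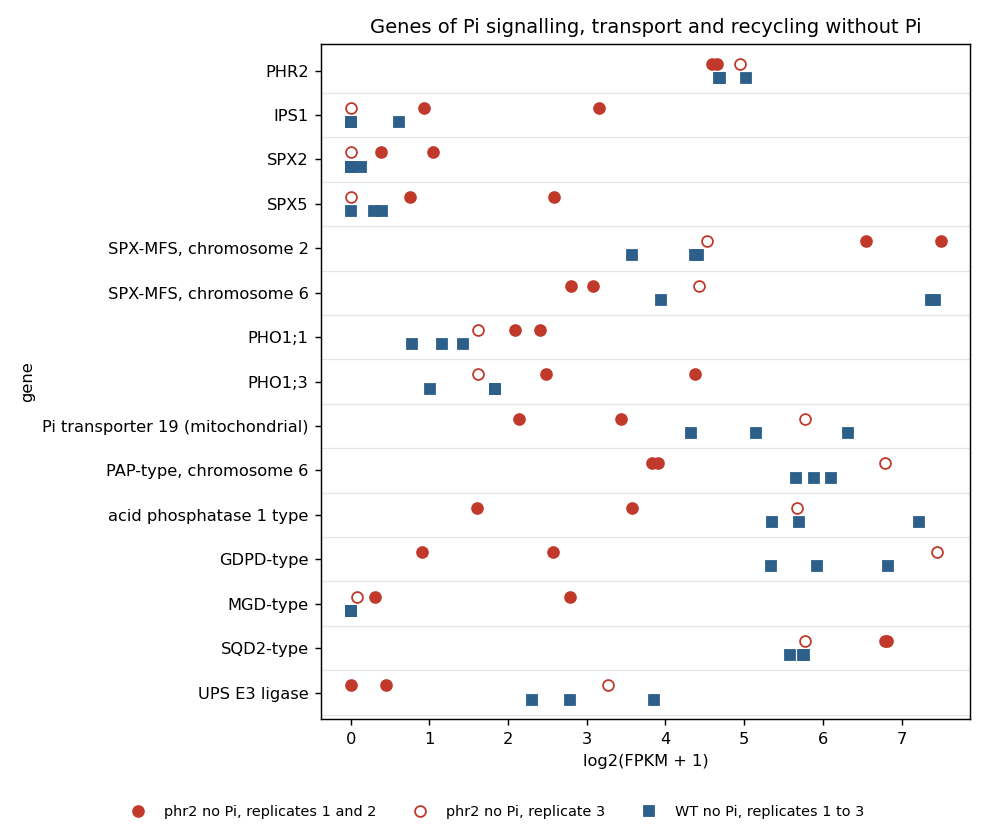
Level of 15 genes of Pi signalling, transport, phosphatases and membrane lipids as log2(FPKM + 1) on the horizontal axis, with phr2 libraries as circles (replicate 3 open) above WT libraries as squares in each row. For IPS1, SPX5 and the MGD-type gene 1 filled circle, phr2 replicate 1, stands to the right of every other library, while all 6 libraries lie between 23.2 and 31.5 FPKM for PHR2.

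Photosynthesis genes lay on the higher side in phr2 without passing. Of 65 light harvesting and photosystem genes 0 passed, 50 lay above 0 and the median was 0.66 (0.63 with all 6 libraries, and 0.61 under quantile normalization, which moved the median of all genes to 0.15). Among all 20900 genes 10491 lay above 0. The CP29 antenna gene Os07g0558400 had 12111, 15101 and 5424 FPKM in phr2, against 5127, 3759 and 4159 FPKM in WT (log2 difference 1.65, SE 0.41, limma adjusted p = 0.0859; 1.21 with all 6 libraries). The gene of photosystem II protein W (Os05g0508900) had 558, 643 and 221 FPKM in phr2, against 136, 275 and 171 FPKM in WT (log2 difference 1.68, SE 0.42, limma adjusted p = 0.0900; 1.21 with all 6 libraries). In the antenna gene all 3 phr2 libraries lay above all 3 WT libraries. In control medium the median of the same list was −0.18, with 40 of 65 below 0. The leaf mesophyll markers (24 of 38 tested) summed to 124400, 151000 and 77220 FPKM in phr2, against 77200, 56910 and 56940 FPKM in WT. Of these markers 16 are light harvesting genes, the CP29 gene among them, so the sum is not a separate reading of mesophyll content. In such bulk samples fewer cells of a type and less RNA per cell cannot be told apart. The part of the marker level in these differences was not tested.

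Chlorophyll synthesis (33 genes, median 0.21, and 0.26 with all 6 libraries) and the Calvin cycle (51 genes, median 0.55, and 0.35 with all 6 libraries) also had 0 genes that passed. FADED GREEN LEAF, a protochlorophyllide reductase of the light-dependent step (Os10g0496900), had 1115, 947 and 461 FPKM in phr2, against 330.3, 379 and 179 FPKM in WT (log2 difference 1.86, SE 0.47, limma adjusted p = 0.0887; 1.48 with all 6 libraries). Its relative PROTOCHLOROPHYLLIDE OXIDOREDUCTASE A (Os04g0678700) had 228, 838 and 86.7 FPKM in phr2, against 88.8, 37.6 and 29.0 FPKM in WT (log2 difference 3.22, SE 0.84, limma adjusted p = 0.1002; 2.45 with all 6 libraries). All 3 phr2 libraries lay above the WT libraries in the first gene, and replicate 3 overlapped with WT in the second. Glyceraldehyde-3-phosphate dehydrogenase of the chloroplast (Os04g0459500) had 1531, 2035 and 1259.7 FPKM in phr2, against 772, 652 and 563 FPKM in WT (log2 difference 1.43, SE 0.41, limma adjusted p = 0.127; 1.26 with all 6 libraries). In control medium its difference had the opposite sign (−1.14, limma adjusted p = 0.136). The difference between the media did not pass for this gene (limma adjusted p = 0.398 for the interaction with all 12 libraries). Ribose-5-phosphate isomerase (Os04g0306400) had 245, 125 and 434 FPKM in phr2, against 899, 383 and 457 FPKM in WT (log2 difference −1.62, SE 0.45, limma adjusted p = 0.121; −1.19 with all 6 libraries).

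The series' title names nitrogen and carbon metabolism. In the nitrogen list 2 of 102 genes rose (1.96%, against 0.215% of all genes) and 0 fell, with a median of −0.21 with or without replicate 3. One of them is Os01g0556650, above, described as a hypothetical protein. Os12g0231000, matched to NRT1/PTR FAMILY 4.3, had 54.2, 63.4 and 13.0 FPKM in phr2, against 18.6, 14.2 and 16.8 FPKM in WT (log2 difference 1.77, SE 0.32, limma adjusted p = 0.0282; 1.08 with all 6 libraries), with replicate 3 below the lowest WT library. HIGHLY INDUCED BY NITRATE GENE 6, a zinc finger gene (Os03g0838800), had 1.40, 0.771 and 9.83 FPKM in phr2, against 86.6, 9.51 and 13.4 FPKM in WT and did not pass (log2 difference −3.52, SE 0.76, limma adjusted p = 0.0511; −2.73 with all 6 libraries). Of 98 starch and sucrose genes 0 passed (median 0.10, and 0.13 with all 6 libraries). The nearest was NEUTRAL/ALKALINE INVERTASE 2, which splits sucrose (Os01g0332100), with 45.1, 19.1 and 126 FPKM in phr2, against 261, 121 and 200.7 FPKM in WT (log2 difference −2.61, SE 0.56, limma adjusted p = 0.0518; −1.93 with all 6 libraries). TREHALOSE-6-PHOSPHATE SYNTHASE 8 (Os08g0445700) had 0.524, 0.722 and 36.9 FPKM in phr2, against 28.1, 34.9 and 9.33 FPKM in WT (log2 difference −3.77, SE 0.92, limma adjusted p = 0.0797; −2.25 with all 6 libraries).

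Other housekeeping and stress groups gave 0 calls. These were cytosolic ribosomal proteins (212 genes, median −0.02), organelle ribosomal proteins (82, −0.04), iron and metal homeostasis (50, −0.10), the glyoxylate cycle and beta-oxidation (75, −0.37), autophagy (36, 0.07), the proteasome (58, 0.12), histones and cell division (117, 0.07), chlorophyll breakdown (13, −0.22), root and endodermis markers (30, 0.32) and phloem and secondary wall markers (11, −0.28). With all 6 libraries the medians of these 10 lists, in the same order, were 0.02, 0.17, −0.13, −0.28, −0.05, 0.01, 0.00, −0.06, 0.16 and −0.27. Amino acid breakdown had 1 fall of 26 (3.85%, against 1.17% of all genes), PROLINE DEHYDROGENASE (median −0.42 with or without replicate 3). NICOTIANAMINE SYNTHASE 3, an enzyme of iron transport (Os07g0689600), had 34.7, 37.5 and 0.592 FPKM in phr2, against 5.005, 0 and 0 FPKM in WT (log2 difference 4.35, SE 1.03, limma adjusted p = 0.0720; 2.84 with all 6 libraries). Replicates 1 and 2 lay above all other libraries, but the gene did not pass. Lon protease of the peroxisome (Os09g0533400) had 238, 248 and 593 FPKM in phr2, against 766, 488 and 1206 FPKM in WT (log2 difference −1.66, SE 0.40, limma adjusted p = 0.0775; −1.23 with all 6 libraries).

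**Figure D4:**
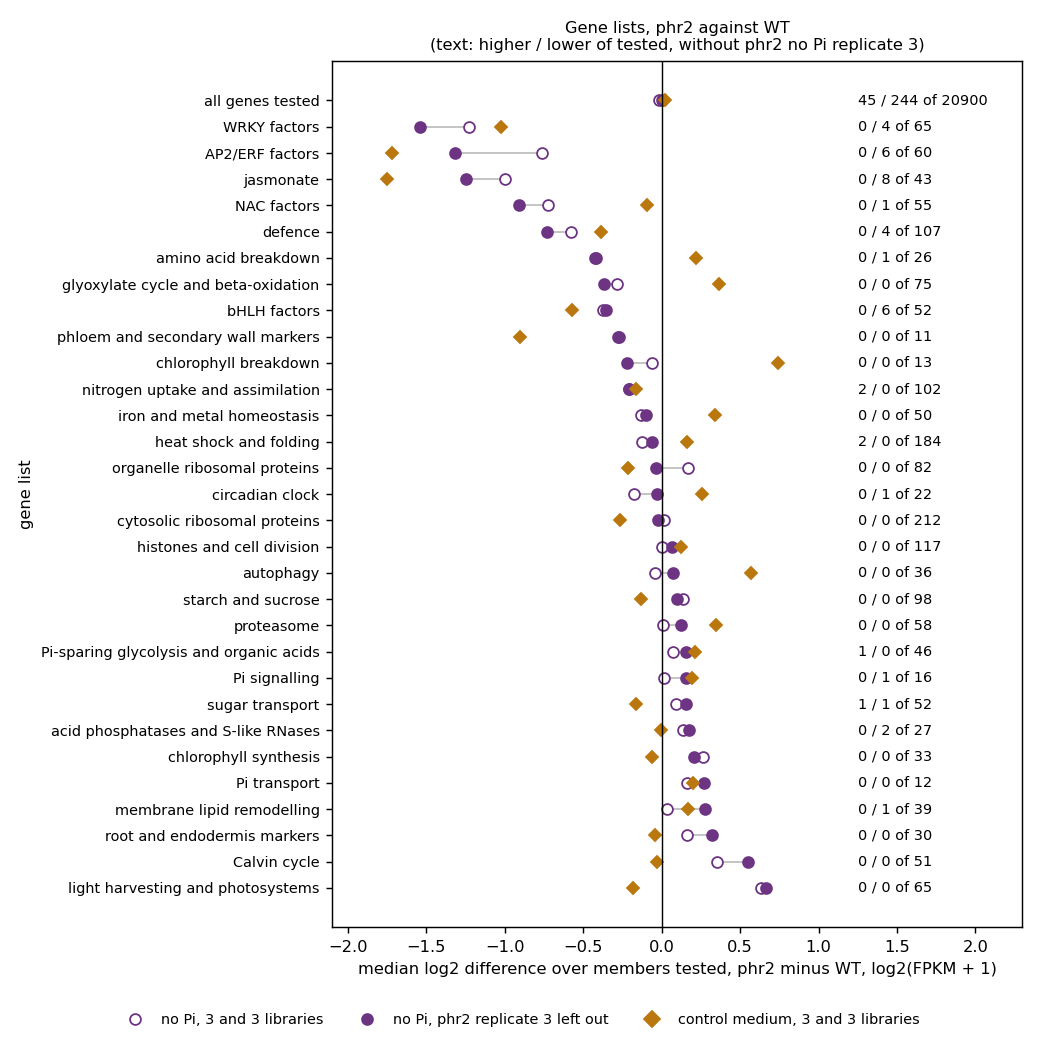
Median log2 difference, phr2 minus WT, over the tested members of 30 gene lists and over all genes, with the no Pi values with all 6 libraries (open circles) and without phr2 replicate 3 (filled circles) and the control medium values (diamonds). Numbers at the right count genes higher and lower among those tested without replicate 3; without Pi and without replicate 3, WRKY, AP2/ERF and jasmonate genes have the lowest medians and light harvesting genes the highest, while in control medium the median of light harvesting genes is −0.18.

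Of 81 marker genes of leaf and other cell types tested, 0 passed. Root markers (8 of 19 tested) summed to 284, 242 and 173 FPKM in phr2, against 236, 139 and 142 FPKM in WT, nearly all from silicon transporter genes. RCc3, a root-specific gene family, was at 0, 0 and 1.11 FPKM in phr2, against 0.189, 0.547 and 0 FPKM in WT. Casparian strip genes, which mark the root endodermis, summed to 11.3, 7.98 and 15.6 FPKM in phr2, against 5.83, 18.1 and 3.22 FPKM in WT. Dividing-cell markers (47 of 62 tested) summed to 7397, 5612 and 4048 FPKM in phr2, against 13740, 3278 and 9211 FPKM in WT, and the groups overlapped. The phloem transporter gene SUT1 had 12.1, 24.8 and 16.3 FPKM in phr2, against 16.9, 6.12 and 8.84 FPKM in WT. Secondary wall CESA genes summed to 1.09, 7.27 and 19.2 FPKM in phr2, against 3.49, 3.52 and 0.920 FPKM in WT.

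The control medium libraries gave a second reading of the genotypes: they entered the choice of these genes through the shared estimate of the spread, not through the difference. Over the 244 genes that fell without Pi, the median log2 difference was −3.14 without Pi (replicate 3 left out), against −2.90 in control medium, where 239 of the 244 (98%) lay below 0, against 48.9% of all 20900 genes. In control medium 130 genes fell (0.622%) and 15 rose (0.0718%), and 30 of the 244 were among those that fell. Over the 45 genes that rose, the median was 2.52 without Pi, against 0.67 in control medium. Of these 35 lay above 0 in control medium, against 10685 of all 20900 genes, and 0 passed there. No gene passed the test of the difference between the media, with all 12 libraries (0%; 1853 unadjusted, 8.87%; smallest adjusted p 0.398) or without replicate 3 (0%; 1586 unadjusted, 7.59%; smallest adjusted p 0.185). Genes are not independent, so these shares carry no test.

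**Figure D5:**
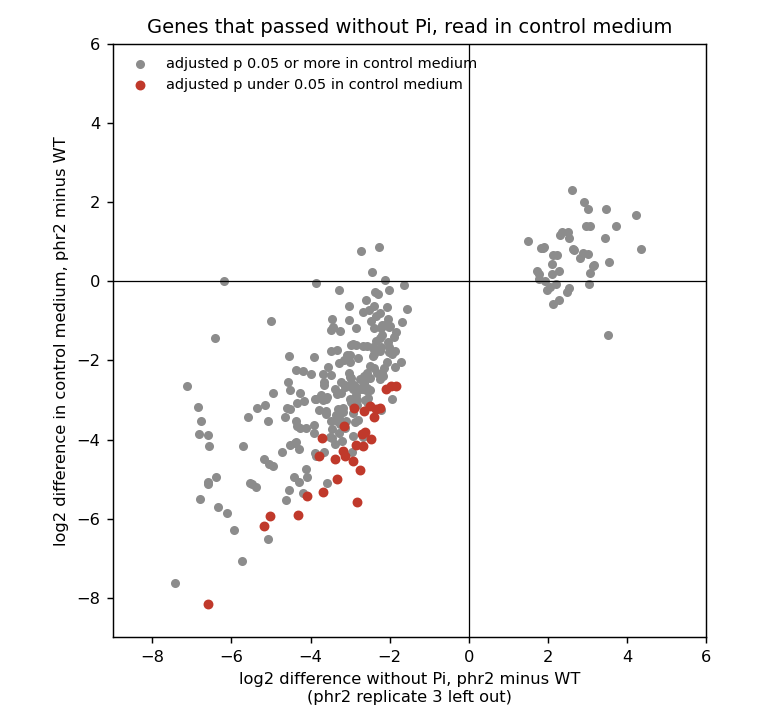
Log2 difference, phr2 minus WT, of the 289 genes that passed without phr2 replicate 3, without Pi on the horizontal axis and in control medium on the vertical axis. Of the 244 genes left of 0 all but 5 lie below 0 in control medium, and red points mark those that passed there, while the 45 genes right of 0 scatter about a median of 0.67.

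Among named genes, the losses that also passed in control medium were of several kinds. bHLH185 had 0.0834, 0 and 0.110 FPKM in phr2 control, against 332, 171 and 494 FPKM in WT control (log2 difference −8.16, limma adjusted p = 0.0463). bHLH148 had 39.0, 12.2 and 47.4 FPKM in phr2 control, against 804, 2978 and 2434 FPKM in WT control (−5.93, adjusted p = 0.0423). Here, with 3 libraries a group, no phr2 library reached the lowest WT library. MONOSACCHARIDE TRANSPORTER 6 (−5.90), the hevamine-type chitinase gene Os01g0860500 (−5.33), ALLENE OXIDE SYNTHASE 1 (−4.49) and the E3 ligase gene Os03g0240600 (−4.78) also passed, each at a limma adjusted p of 0.0423. TIFY10A (−4.32) and WRKY108 (−7.07) did not pass there (limma adjusted p = 0.0601 and 0.0510). EARLY FLOWERING 3.2 had 16.1, 15.8 and 19.8 FPKM in phr2 control, against 19.3, 14.6 and 16.5 FPKM in WT control, a difference of 0.03. Its difference between the media did not pass (limma adjusted p = 0.567 without replicate 3).

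The values of phr2 no Pi replicate 3 on these genes are a description, since it was left out for its nearness to the WT profile and the genes were chosen without it. Over the 244 genes that fell it lay within the WT range for 131 (53.7%, against 58.6% of all 20900 genes), above all WT libraries for 68 (27.9%, against 20.6%) and below all of them for 45 (18.4%, against 20.8%). Over the 45 genes that rose it lay above all WT libraries for 32 (71.1%, against 20.6% of all 20900 genes). It lay within their range for 11 of the 45 (24.4%, against 58.6%). With replicate 3 in the group, the medians were −2.09 over the 244 genes and 1.90 over the 45.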

How the data were processed

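RNA from rice leaves was sequenced on Illumina libraries, 3 per group in 4 groups. The authors deposited one table of FPKM values per transcript, with no counts. The submitters' processing notes name HISAT2 2.0, StringTie 1.3.0 and Bowtie 0.12.2 with no order, and the build mm8, a mouse build; the rice build behind the coordinates is not given in the sources used here, and neither is the use of strand in counting. FPKM values were summed over the 46947 transcripts to 39967 genes, and genes with at least 1 FPKM in at least 3 of the 6 no Pi libraries were kept. Differences were taken between log2(FPKM + 1) values, so those of low genes are understated.

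The test was limma's moderated test with a trend (limma 3.58.1, R 4.3.3), fitted with 4 group means to all 12 libraries, or to 11 without phr2 no Pi replicate 3, with Benjamini-Hochberg adjustment. The FPKM steps gave whole fragments for 100% of values (tolerance 0.01), 10137241 to 13122430 per no Pi library; voom on these fragments was an alternative. The fits were also run on simulated data with independent normal noise and no outlying library. That setting differs from these libraries, so the run does not check the calls made here. Figures used Python 3.11.15 and matplotlib 3.10.9.

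Members and gene lists were chosen with earlier results of these data known. Named genes were PHR2, DGP1, GLK1 and GLK2; the 10 largest rises and falls per comparison among named or described genes that passed, did not overlap and averaged at least 5 FPKM in a group; and the 2 genes of smallest p per list (3 for the Pi signalling, Pi transport, lipid and nitrogen lists), of which the text leaves out some from lists with few or 0 calls. Other genes, among them TIFY10B, TIFY11D, ALLENE OXIDE SYNTHASE 1, WRKY21, WRKY104, IPS1, SPX2, SPX5, PHO1;1 and PHO1;3, were named after their values were seen. A search word that brought IPS1 and the E3 ligase gene Os03g0240600 into the Pi signalling list was added after values were seen. Promoter motifs were not analysed here. Alternatives changed the pseudocount (0.1), the filter, the scaling, the samples fitted, the test and the libraries.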

Additional observations from a re-analysis of the deposited data

How the results depend on the processing

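The count of genes that passed between the 3 and 3 no Pi libraries was 33 without WT no Pi replicate 2 (3 higher and 30 lower), 289 without phr2 no Pi replicate 3 (45 higher and 244 lower) and 453 with both left out (92 higher and 361 lower), and 0 in all other alternatives run. Without phr2 replicate 3, the 289 genes became 146 with no filter on low values (112 lower), 639 with the no Pi groups fitted alone (76 higher and 563 lower) and 94 with voom on the recovered fragments (23 higher and 71 lower). Quantile normalization gave 412, of which 121 were higher. Leaving out a further no Pi library gave from 0 to 453 genes, from 0 to 92 higher and from 0 to 361 lower. Among these, the lowest count came without phr2 replicate 2, followed by 7 without phr2 replicate 1, and the highest without WT no Pi replicate 2. Leaving out WT control replicate 1, the one control library left out, gave more, 667 genes (117 higher and 550 lower), with all 289 among them. The count was 274 with a pseudocount of 0.1, 320 with FPKM rescaled to one sum and 237 with genes of 1 transcript. All 289 genes, where tested, kept their direction in each setting. They were chosen for large differences in these same libraries, so the kept direction was nearly fixed by that choice and does not check the calls. The cause of the shifts in the counts was not tested.

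The labels do not say whether equal replicate numbers mark a shared batch, and the main fits took no pairing. The correlations of same-numbered deviations were 0.31, 0.077 and −0.12 for replicates 1, 2 and 3, which do not settle whether samples were paired. With the replicate block the count was 76 (14 higher and 62 lower). Over the single named genes 1123 values kept direction and call, 274 lost the call, 38 gained it and 3 reversed. The reversals were PHR2 under quantile normalization (0.028) and GLK2 under quantile normalization (0.10) and without WT no Pi replicate 1 (0.037), none of which passed. Leaving out 1 library moved GLK2 between −0.58 and 0.037. The calls set 2 libraries against 3, which limits their precision. They also leave out a library for its profile in these same data, so their adjusted p-values can be too low.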
